A study of Arabidopsis thaliana with 39 samples.

Results

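Seedlings of the Arabidopsis thaliana mutant ld were compared with wild-type Col0 seedlings of the same experiment, the second of 3 seedling sets that carried a spike-in, an external RNA used to put libraries on a common scale. The comparison held 3 ld and 3 Col0 libraries, 6 of the 39 in the series, chosen by their labels. Both groups were whole 7-day-old plants grown in 16 h of light per day, and each library started from 2 µg of total RNA. The same set also held pol2a, named for the gene of the large subunit of DNA polymerase epsilon, and the double mutant ld pol2a, with 3 libraries each, all 12 of which shared 1 estimate of the spread. The ld and pol2a alleles and the number of seedlings per sample are given in no source used here. Of 28775 genes, 19444 had a mean of at least 10 over the 12 libraries and were tested. The values are whole-number gene counts divided by 1 factor per library, here called signal.

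LUMINIDEPENDENS (LD), the gene that gives ld its name, encodes a homeodomain protein of the nucleus and belongs to the autonomous flowering pathway. That pathway promotes flowering by keeping down FLOWERING LOCUS C (FLC), a MADS-box repressor that blocks the floral integrators SOC1 and FT, so its mutants flower late. The series asks whether LD restrains transcription at a few genes or at many.

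Library size did not separate the groups. The ld libraries held 13.4, 26.4 and 16.8 and the Col0 libraries 15.01, 24.7 and 16.3 (1e6 reads, recovered from the signal as whole multiples of its smallest value, and perhaps not raw counts, since the 12 libraries lack 1 direction of within-group variation). Summed signal was 19.5, 19.3 and 19.2 in ld and 12.2, 12.1 and 11.9 in Col0 (1e6 signal), and the groups did not overlap. The log2 difference of the sums was 0.68 ± 0.01 (SE, n = 3 each; two-sided exact permutation test, p = 0.1, the smallest p that 3 against 3 allows). The design text calls the replicates biological, but separate sowings are stated nowhere, so a p-value gauges the spread among the libraries at hand, which may be technical. The signal of LD itself (AT4G02560, chromosome 4, 1123475 to 1128490, TAIR10.1) was 308, 306 and 333 in ld and 168, 198 and 182 in Col0. Every ld library was above every Col0 library, and since the allele is unknown this level checks no label. Relative to the shift described next LD was not called (log2 change 0.23 ± 0.09, SE; limma, adjusted p = 0.0584), but it was called without Col0 library 2 (0.28; limma, adjusted p = 0.0418).

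On the spike-in scale the typical gene was higher in ld. The median log2 change over the genes tested was 0.56, or 1.47-fold, with quartiles of 0.38 and 0.71. Of all genes tested 79.8% were called higher and 1.71% lower (limma, Benjamini-Hochberg adjusted p under 0.05). Each library started from 2 µg of total RNA, so the signal gives transcripts relative to the spike-in and not per cell. In a bulk extract RNA per cell and the number of cells of a type cannot be told apart. The cause of the shift was not tested. To show which genes departed from the common shift, each library was also divided by its median-of-ratios size factor, and changes on that scale are called relative. Relative to the shift 18.2% of genes were called higher and 16.2% lower, and 126 of those higher and 301 of those lower moved by more than 2-fold. Of the 3143 genes called lower relative to the shift, 333 were also called lower on the spike-in scale, 1290 were called higher there and 1520 were not called. A relative fall therefore most often stood for a gene that rose less than the rest or for one with no called change. Scaling every library to the same summed signal instead moved the median to -0.11, and 8.80% of genes were then called higher and 31.1% lower, so that the higher share of all calls was 22.1%, against 52.9% with the median-of-ratios scale.

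The shift was not the same at all levels of expression. In 5 equal bins of 3861 genes ordered by mean signal over the 6 libraries, the median log2 change on the spike-in scale was 0.35, 0.49, 0.56, 0.59 and 0.63, low to high. Taken as the ratio of group means, which uses no pseudocount, the bin medians were 0.38, 0.50, 0.56, 0.59 and 0.63. Relative to the shift 5.31% of the lowest bin and 39.8% of the highest were called higher, while 17.6% and 11.9% were called lower. The highest bin began at a signal of 777 and the lowest ended at 51.5, and calls at low signal rest on fewer reads. Across 19305 genes Spearman's rho of the relative change was 0.27 with the level, 0.13 with GC content, -0.09 with the number of exon intervals and -0.02 with exon length, a description in which genes share libraries and depth. By chromosome the relative medians lay between -0.0039 and 0.0081, so no chromosome stood apart.

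**Figure D1:**
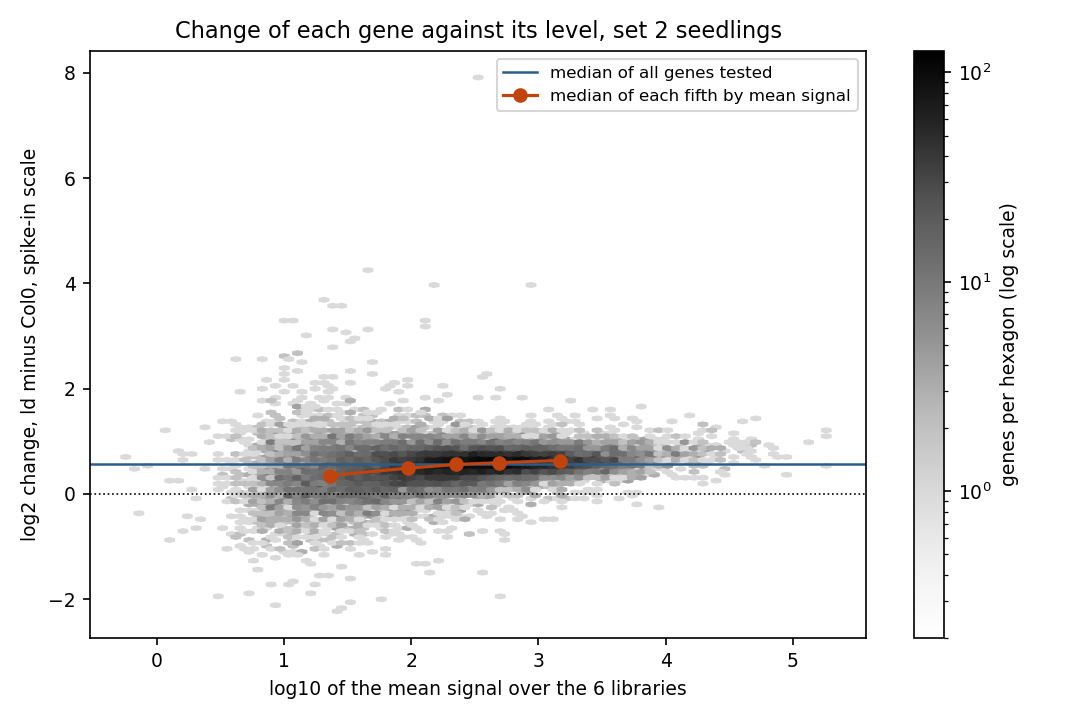
Each hexagon holds genes by log10 of their mean signal over the 6 libraries (horizontal) and by their log2 change, ld minus Col0, on the spike-in scale (vertical), with shade giving the number of genes on a log scale. The blue line marks the median of all genes tested, 0.56, and the orange points the medians of 5 equal bins by level, which climb from 0.35 at low to 0.63 at high signal.

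The flowering repressor and its best-known target moved in opposite directions. FLC (AT5G10140, chromosome 5, 3173382 to 3179448) had a signal of 1551, 1748 and 1647 in ld, against 97.4, 114 and 101 in Col0. SOC1 (AT2G45660, chromosome 2, 18807505 to 18811125), a MADS-box promoter of flowering repressed by FLC, had 86.1, 70.4 and 59.3 in ld and 214, 207 and 197 in Col0. Neither gene's groups came near to touching. The relative log2 change was 3.41 ± 0.15 for FLC (SE; limma, adjusted p = 8.39e-13) and -2.08 ± 0.12 for SOC1 (limma, adjusted p = 8.63e-11), and SOC1 was among the few genes called lower on the spike-in scale as well. FT, the mobile flowering signal, was listed at 0 in all 3 ld libraries and at 0, 0.489 and 1.46 in Col0, too low to test.

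Of the 6 genes of the FLC clade, FLC was called higher and 3 lower, and the relative median was -0.03. On the spike-in scale 5 of the 6 were called higher and 1 lower, beside 79.8% and 1.71% of all genes tested. In set 1, another seedling set, 5 were called higher and 0 lower relative to that set's own shift (median 0.69). The shares over all genes tested in set 1 were 25.4% and 27.6%. MAF2, a repressor that delays flowering after short cold, had a signal of 963, 1005 and 1049.7 in ld and 1136, 1105 and 1122 in Col0, the ld libraries all below the Col0 ones. Its relative log2 change was -0.72 ± 0.05 (limma, adjusted p = 4.15e-10) and it was also called lower on the spike-in scale. FLM, a temperature-dependent repressor, was at -0.35 ± 0.06 (limma, adjusted p = 0.000155) and MAF3 at -0.34 ± 0.09 (limma, adjusted p = 0.00543), while MAF4 (0.29) and MAF5 (0.27) were not called. In the autonomous pathway 3 of 15 genes were called higher and 1 lower, with a median of 0.06, a higher count near the 18.2% of all genes tested, beside 16.2% lower. The gene called lower was FCA, an RNA-binding protein that acts on FLC antisense transcripts, at 212 ± 9.44 in ld and 232 ± 31.8 in Col0 (SD, n = 3 each), a relative log2 change of -0.68 ± 0.09 (limma, adjusted p = 4.24e-06). FPA, another RNA-binding protein of the pathway, was called higher at 0.31 ± 0.05 (limma, adjusted p = 0.000144). Of 8 other floral repressors tested 3 were called higher and 2 lower, with 1 higher without ld library 3. Of 7 floral promoters 2 were called higher and 1, SOC1, lower, with 1 higher without ld library 3 or Col0 library 1, and 2 lower without Col0 library 1. The 1 lower call of the autonomous pathway became 2 without ld library 3.

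The 15 largest relative rises and 15 largest relative falls were taken among called genes that had a reference symbol, a mean of 50 or more and ld libraries clear of the Col0 ones. In each direction 15 of 15 were called the same way on the spike-in scale. Background for the separation is that 22.8% of all genes tested had every ld library above every Col0 library relative to the shift, and 20.8% had every ld library below.

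The largest rise was that of MRD1 (AT1G53480, chromosome 1, 19963047 to 19964712). Its signal was 727, 628 and 667 in ld, against 0.812, 3.92 and 1.46 in Col0. These values stand for 498, 857 and 585 recovered reads in ld and for 1, 8 and 2 in Col0, so the Col0 level of MRD1 rests on few reads. Of its exon length 73.8% overlaps HEI10 (AT1G53490), a meiotic crossover gene on the opposite strand, and since the strand used in counting is not given the pair cannot be fully separated. HEI10 had 75.9, 96.1 and 70.7 in ld and 14.6, 9.79 and 16.8 in Col0, and its groups were apart as well.

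IPS1 (AT3G09922, chromosome 3, 3050989 to 3051530), a noncoding RNA of phosphate starvation that sequesters miR399, came next, with 299, 304 and 247 in ld and 17.1, 18.1 and 15.4 in Col0. HOL2 (AT2G43920), a relative of the thiol methyltransferase HOL1, had 716, 704 and 671 in ld and 144, 135 and 148 in Col0. For both genes the lowest ld library lay several-fold above the highest Col0 library. The relative log2 change was 3.45 ± 0.13 for IPS1 (limma, adjusted p = 1.31e-13) and 1.73 ± 0.08 for HOL2 (limma, adjusted p = 1.21e-12). The methyl esterase family gave MES18 at 1.67 ± 0.06 and MES8 at 1.49 ± 0.13 relative to the shift. The remaining rises ran from 1.58 for LTP3, a lipid transfer protein, to 1.04 for LHCB2.3, a light-harvesting antenna protein. Between them lay NRT1.8 (1.39), a nitrate transporter that retrieves nitrate from the xylem, MIOX4 (1.27), an inositol oxygenase, EXPA8 (1.26), an expansin that loosens cell walls, and ESM1 (1.23), which steers glucosinolate breakdown towards isothiocyanates. EMB975 (1.26) and CWLP (1.098), a proline-rich cell wall linker protein, overlap another gene over 24.1% and 80.6% of their exon length, so their counts are uncertain. AATP1, an AAA-type ATPase, was at 1.05.

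SOC1 led the falls and IRT1 (AT4G19690, chromosome 4, 10707344 to 10709015), the root epidermal iron importer, followed. IRT1 had a signal of 75.9, 80.7 and 69.5 in ld, against 199, 176 and 189 in Col0. SR34b (AT4G02430, chromosome 4, 1068974 to 1072263), a serine/arginine-rich splicing factor gene whose end lies 51212 bases from LD, had 90.5, 101 and 98.0 in ld and 218, 249 and 250.4 in Col0. In both, the ld signal was under that of every Col0 library by a wide margin. The relative log2 change was -1.87 ± 0.08 for IRT1 (limma, adjusted p = 5.93e-13) and -1.86 ± 0.10 for SR34b (limma, adjusted p = 1.94e-11). COR413IM1, a cold-regulated protein of the chloroplast inner envelope, had 461, 427 and 406 in ld and 747, 739 and 714 in Col0, with tight replicates on each side (relative log2 change -1.33 ± 0.05, limma, adjusted p = 1.03e-13). UGT74E2 (-1.51), a glucosyltransferase of indole-3-butyric acid, and AIR1 (-1.27), first found as an auxin-induced gene of root cultures, both relate to auxin. The others were EXLB1 (-1.33), an expansin-like protein, RLP19 (-1.30), a receptor-like protein, GLP9 (-1.23), a germin-like protein, OASA2 (-1.21), a cysteine synthase family member, NF-YC12 (-1.20), a CCAAT-binding factor subunit, RABA6b (-1.17), a small GTPase, MTPA2 (-1.16), a vacuolar zinc transporter, and CYP87A2 (-1.15), a cytochrome P450. SCAMP4 (-1.61) shares 77.4% of its exon length with a gene on the opposite strand and is uncertain.

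**Figure D2:**
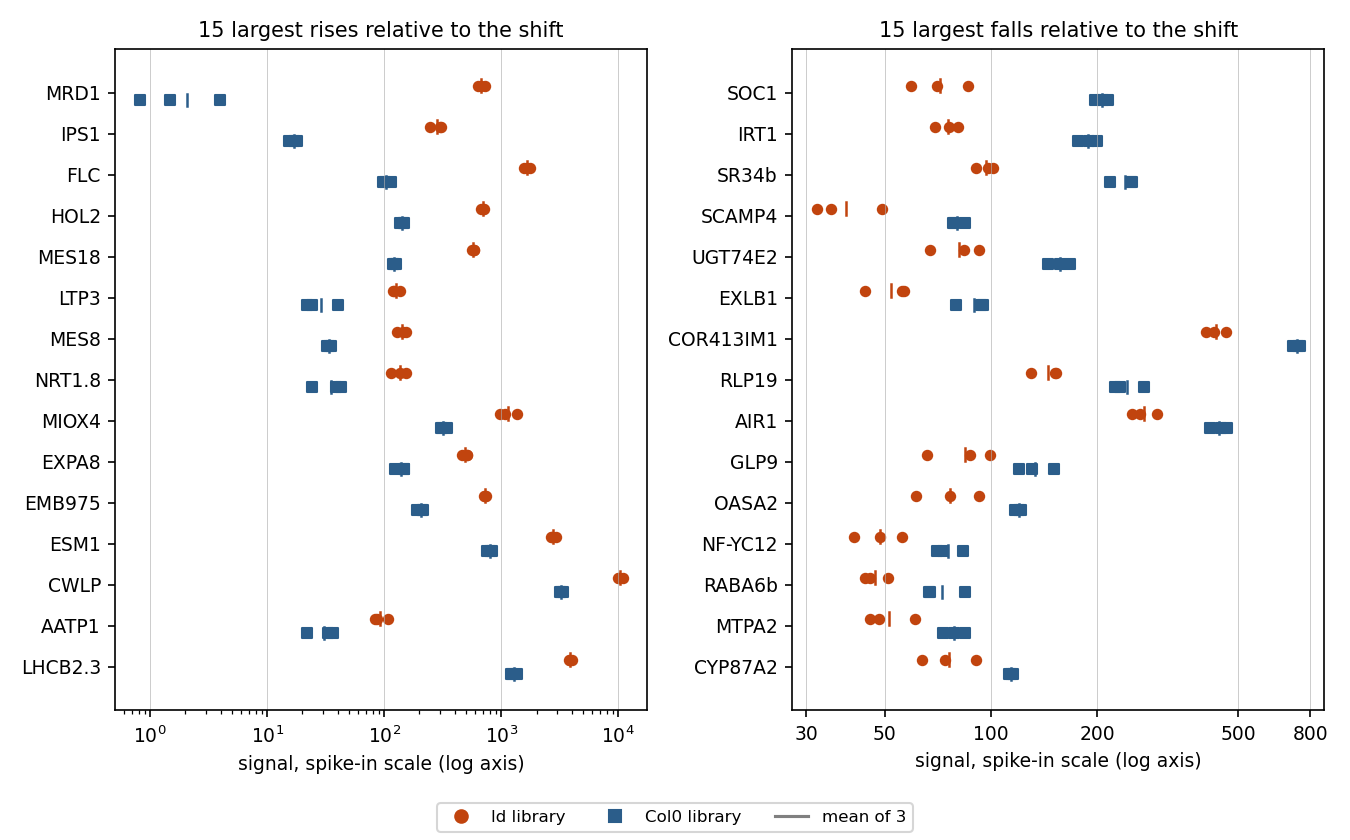
Signal on the spike-in scale (horizontal, log axis) of the 15 largest relative rises (left panel) and 15 largest relative falls (right panel), with each ld library as a circle, each Col0 library as a square and a tick at the mean of 3. In every row the ld and Col0 points are apart, and MRD1 is the row whose Col0 points reach 1.

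Most nuclear photosynthesis genes rose beyond the shift. Of 21 light-harvesting antenna genes 20 were called higher and 0 lower, with a relative median of 0.42 against 0.0020 over all genes tested. Of 29 photosystem subunit genes 29 were called higher (median 0.32), of 18 Calvin cycle genes 17 (median 0.34) and of 17 chlorophyll synthesis genes 16 (median 0.42), with 0 called lower in each list. These are counts beside a background of 18.2% called higher, and at equal summed signal they were 19, 26, 15 and 13. Highly expressed genes were called higher more often in general, as the bins by level show. The antenna genes made up 5.53% ± 0.101 of all signal in ld and 4.23% ± 0.123 in Col0 (SD, n = 3 each; two-sided exact permutation test, p = 0.1, the smallest possible). The Calvin cycle genes made up 3.54% ± 0.0335 in ld and 2.87% ± 0.0576 in Col0 (the same exact test, p = 0.1).

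Within the antenna list LHCB2.3 had the largest relative rise. LHCB2.3 (AT3G27690, chromosome 3, 10255906 to 10257489) had 3772, 3842 and 4008 in ld, against 1217, 1375 and 1227 in Col0, and the groups lay far apart. Of its exon length 40.6% overlaps a gene on the opposite strand. CAB3, an LHCB1 protein of the trimeric antenna of photosystem II, averaged 80023 ± 1770.1 in ld and 29717 ± 786 in Col0 (relative log2 change 0.87 ± 0.04, limma, adjusted p = 5.9e-13). CAB1, its neighbour on chromosome 1, averaged 247460 in ld and 114080 in Col0 at a smaller relative change of 0.56 ± 0.04 (limma, adjusted p = 5.02e-09). The LHCB1 genes share much of their sequence (25.1% of the 31-base words of CAB3 and 38.6% of those of CAB1 recur in other genes), so reads may be split between them. LHCB7, a divergent member of the family, was the gene not called (relative log2 change 0.05).

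The chlorophyll genes called higher came from several steps of the pathway. HEMA1, the glutamyl-tRNA reductase that commits glutamate to tetrapyrroles, had 2896, 2879 and 2813 in ld, against 1068, 1130.0 and 1105 in Col0. All ld libraries were more than 2-fold above all Col0 libraries, and the relative log2 change was 0.82 ± 0.03 (limma, adjusted p = 4.29e-13). PORB, the light-dependent protochlorophyllide reductase, changed by 0.71 ± 0.03 (limma, adjusted p = 1.32e-12) and GUN5, the H subunit of magnesium chelatase, by 0.67 ± 0.03 (limma, adjusted p = 2e-12). HEMB1, the porphobilinogen synthase, was not called at 0.05. In carbon fixation RBCS1A, a Rubisco small subunit gene, averaged 243530 ± 7086 in ld and 106810 ± 3181 in Col0 (relative log2 change 0.63 ± 0.04, limma, adjusted p = 1.24e-10), while its relative RBCS2B was not called at 0.07. The genes encoded in the chloroplast itself did not follow: 15 of 86 were called higher and 6 lower, with a median of 0.13. The higher count was near the 18.2% of all genes tested, beside 16.2% lower. The share of the signal in chloroplast-encoded genes was 1.56% ± 0.236 in ld and 1.75% ± 0.573 in Col0 (two-sided exact permutation test, p = 0.7), and their counts rested on single libraries. Without Col0 library 2 they were 9 higher and 13 lower, and the 6 lower calls became 1 without Col0 library 1, 2 without Col0 library 3 or ld library 3 and 3 without ld library 2.

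The G-box, a light-responsive element, stood in the 250 bases before the annotated start in 5 of 21 antenna genes (23.8%), against 7.26% of the promoters of genes tested. Among genes called higher relative to the shift 8.13% of promoters held it, and among those called lower 7.30%. The letters searched were CACGTG, which reads the same on both strands. The promoter of LHCB2.3 (TAIR10.1 from RefSeq, chr3:10255656-10255905, plus strand) is shown because this gene had that list's largest rise. Capitals mark the G-box, 88 bases before the start.
LHCB2.3: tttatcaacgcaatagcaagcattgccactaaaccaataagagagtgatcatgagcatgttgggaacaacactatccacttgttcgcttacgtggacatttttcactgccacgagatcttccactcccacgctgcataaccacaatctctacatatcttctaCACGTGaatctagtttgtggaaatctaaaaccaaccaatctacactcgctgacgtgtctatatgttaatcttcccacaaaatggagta

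Nutrient genes split by nutrient, and the iron and phosphate lists went in opposite directions. Of 15 iron deficiency genes tested 11 were called lower and 1 higher relative to the shift, with a median of -0.95, beside backgrounds of 16.2% lower and 18.2% higher. On the spike-in scale 7 of them were called lower, beside 1.71% of all genes. These 7 were among 19 listed genes, in 11 lists, called lower on that scale. The ferritins, which store iron in plastids, were called higher in 3 of 3 genes (median 0.52).

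FRO2, the ferric reductase that supplies IRT1, had a signal of 21.9, 24.2 and 20.5 in ld, against 48.7, 49.4 and 40.3 in Col0 (relative log2 change -1.57 ± 0.13, limma, adjusted p = 1.94e-08). BHLH100, a transcription factor of iron deficiency, had 1.46, 0.733 and 3.42 in ld and 10.6, 10.3 and 6.59 in Col0 (-2.40 ± 0.33, limma, adjusted p = 1.13e-05). CYP82C4, which makes the iron-mobilising coumarin sideretin, had 2.92, 3.67 and 9.12 in ld and 13.0, 22.02 and 16.8 in Col0 (-2.18 ± 0.30, limma, adjusted p = 9.4e-06). In these genes every ld library was below every Col0 library, though BHLH100 and CYP82C4 rest on few reads. FRU (FIT), the master bHLH factor that pairs with the BHLH38 group, had 33.6, 47.7 and 34.2 in ld and 54.4, 49.4 and 47.6 in Col0, where the highest ld library reached the lowest Col0 library on the spike-in scale. Its relative log2 change was -0.95 ± 0.16 (limma, adjusted p = 7.31e-05). BTS, an E3 ligase that holds the response back, changed little (-0.16 ± 0.04, limma, adjusted p = 0.00632). OPT3, which loads iron into phloem, and MYB10 were not called, and NAS4, a nicotianamine synthase, was the member called higher (0.35 ± 0.13, limma, adjusted p = 0.0407), a call lost without ld library 1 or 2 or Col0 library 1 or 3 (0.27 to 0.35; limma, adjusted p = 0.0754 to 0.156). FER1, a plastid ferritin, averaged 5594 ± 162 in ld and 2016 ± 86.5 in Col0, a relative log2 change of 0.91 ± 0.04 (limma, adjusted p = 4.16e-13).

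IRT1, FRO2 and the coumarin genes act in roots, and root markers were read beside them. Of 12 root markers tested 4 were called lower and 1 higher relative to the shift (median -0.22), beside 16.2% and 18.2% of all genes. At equal summed signal 7 of these markers were called lower and 0 higher, beside 31.1% and 8.80%. The summed signal of the root markers ranged from 90980 to 98567 in ld and from 54205 to 56862 in Col0. Nearly all of it came from PYK10, an endoplasmic reticulum body glucosidase of roots. Without PYK10 the sum was 1821 to 1879 in ld and 1584 to 1645 in Col0, which is 0.00941% to 0.00965% of all signal in ld and 0.0133% to 0.0135% in Col0. CASP1, a marker of the root endodermis, was level on the spike-in scale at 519 ± 16.7 in ld and 515 ± 32.5 in Col0 (relative log2 change -0.55 ± 0.06, limma, adjusted p = 4.96e-07). The part of root tissue in the iron result was not tested. Of the other tissue lists, shoot meristem markers summed to 634 to 697 in ld and 432 to 499 in Col0 with WUS at 0 in all 6 libraries, and trichome markers to 976 to 1029 in ld and 630 to 690 in Col0. As shares of all signal the groups overlapped. Meristem markers held 0.00331% to 0.00360% in ld and 0.00354% to 0.00412% in Col0, and trichome markers 0.00504% to 0.00527% and 0.00518% to 0.00569%. Relative to the shift 0 of 5 meristem and 0 of 6 trichome markers tested were called higher, and 1 in each list lower. Seed maturation markers summed to under 9 in every library, with OLEO2, FUS3 and PER1 among those at 0 throughout, and the antenna genes, which mark green tissue, were abundant in both groups.

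Of 18 phosphate starvation genes tested 13 were called higher and 1 lower, beside 18.2% and 16.2% of all genes tested. The relative median was 0.52, and at equal summed signal 9 were called higher. Genes for lipids, scavenging and signalling were among those called higher. SQD1, which makes the sulfolipid that replaces phospholipids, had 2279, 2202 and 2164 in ld, against 825, 770.3 and 737 in Col0, a clean separation with a relative log2 change of 0.95 ± 0.04 (limma, adjusted p = 1.32e-12). MGD2, a galactolipid synthase of the same remodelling, had 201, 211 and 246 in ld and 82.0, 80.3 and 76.2 in Col0 (0.89 ± 0.10, limma, adjusted p = 6.07e-07). AT4, a noncoding RNA of the IPS1 family, had 1776, 1746 and 1629.9 in ld and 732, 714 and 668 in Col0 (0.72 ± 0.04, limma, adjusted p = 1.23e-10). Each of these genes had its ld libraries at over 2-fold the Col0 ones. PAP17, a secreted acid phosphatase, changed by 0.69 ± 0.11 (limma, adjusted p = 7.12e-05) and SPX1, a phosphate sensor, by 0.54 ± 0.14 (limma, adjusted p = 0.00413). The member called lower was PHT1;1, a phosphate importer, at 594 ± 21.2 in ld and 500.04 ± 24.3 in Col0 (-0.31 ± 0.05, limma, adjusted p = 5.23e-05); 49.9% of its 31-base words recur in other genes, so it is uncertain. PHO1, which loads phosphate into xylem, PHF1, PHT1;4 and NPC4 were not called.

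**Figure D3:**
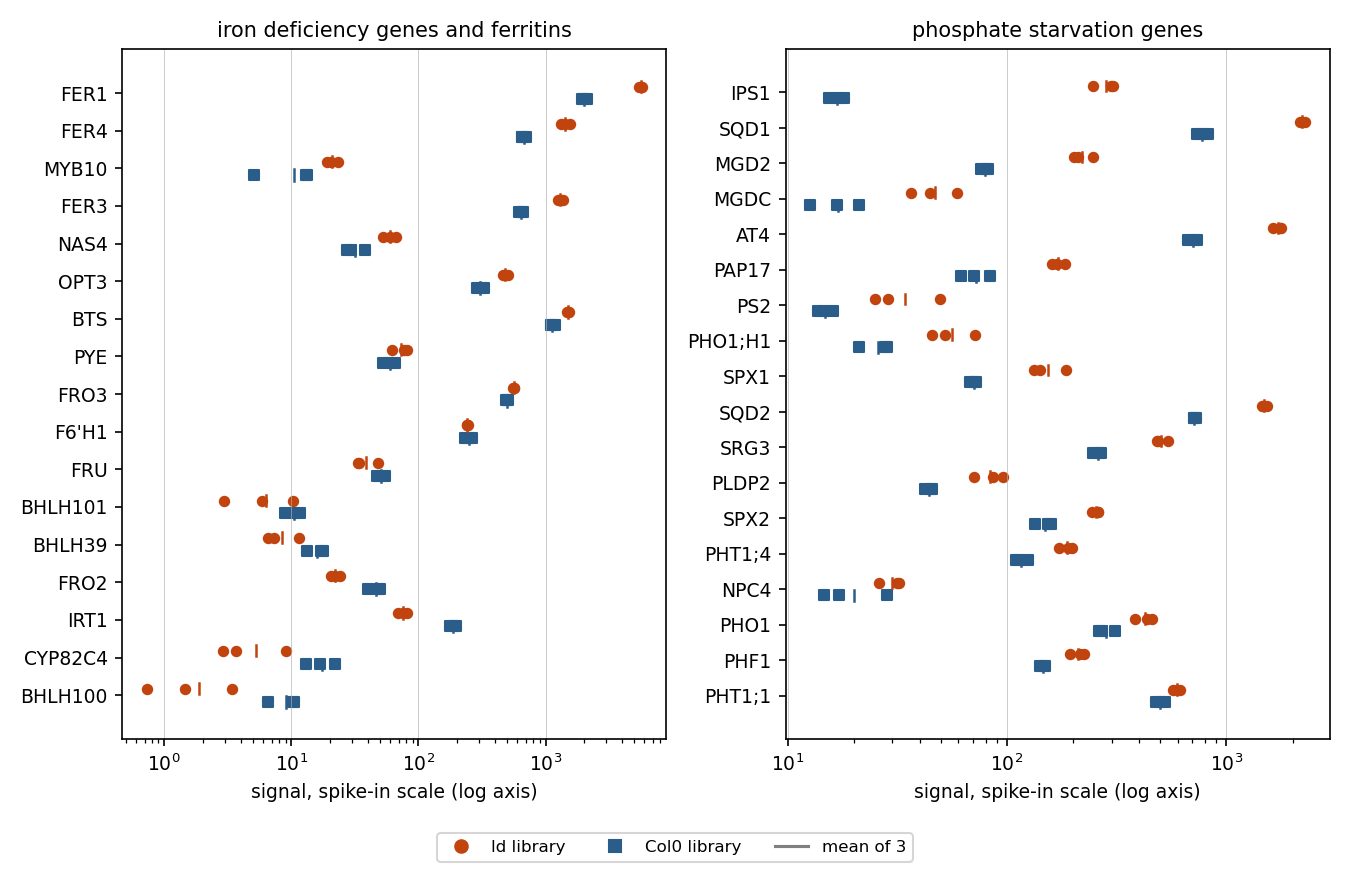
Signal on the spike-in scale (horizontal, log axis) of iron deficiency genes and ferritins (left) and phosphate starvation genes (right), ordered by relative change, with each ld library as a circle, each Col0 library as a square and a tick at the mean of 3. BHLH38 is left out because 1 library is at 0; ld lies left of Col0 at the foot of the left panel, from BHLH100 up to BHLH39, and right of Col0 in every row of the right panel except for touching points of NPC4.

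P1BS, the site of the phosphate starvation regulator PHR1, was found within 250 bases before the start in 6 of 18 phosphate genes (33.3%), against 5.40% of promoters of genes tested and 5.44% of all promoters. Among genes called higher relative to the shift 6.09% of promoters held it, and among those called lower 6.41%. The letters searched were GNATATNC, which reads the same on both strands. IPS1 held no match in this window. The promoters of AT4 (chr5:894332-894581, plus strand), MGD2 (chr5:6896213-6896462, plus strand) and SRG3 (chr3:350011-350260, minus strand), from TAIR10.1 in RefSeq, are shown because these 3 members were called higher and carry the site. Each is written 5′ to 3′ towards the gene, and capitals mark P1BS at 26 bases before the start in AT4, at 14 in MGD2, and at 63 and 127 in SRG3.
AT4: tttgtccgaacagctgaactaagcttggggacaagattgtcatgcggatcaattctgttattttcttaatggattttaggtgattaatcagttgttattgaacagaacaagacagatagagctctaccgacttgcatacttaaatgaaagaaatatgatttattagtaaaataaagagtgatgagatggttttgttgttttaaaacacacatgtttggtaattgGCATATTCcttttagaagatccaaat
MGD2: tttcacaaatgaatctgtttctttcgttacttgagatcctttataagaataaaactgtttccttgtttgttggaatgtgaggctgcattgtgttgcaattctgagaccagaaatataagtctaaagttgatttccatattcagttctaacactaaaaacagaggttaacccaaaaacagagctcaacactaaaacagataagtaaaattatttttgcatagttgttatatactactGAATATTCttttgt
SRG3: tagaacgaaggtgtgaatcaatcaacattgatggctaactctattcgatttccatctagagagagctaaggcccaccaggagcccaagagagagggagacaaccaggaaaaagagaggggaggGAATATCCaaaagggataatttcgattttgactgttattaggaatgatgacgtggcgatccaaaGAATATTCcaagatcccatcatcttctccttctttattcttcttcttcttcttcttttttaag

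SRG3, a glycerophosphodiester phosphodiesterase that frees phosphate from lipid head groups, changed by 0.40 ± 0.06 relative to the shift (limma, adjusted p = 4.25e-05), though 44.7% of its exon length overlaps another gene. The matches are descriptions of these windows. Binding was not measured.

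The sulphur and nitrate lists were mixed. Of 13 sulphur deficiency genes 5 were called higher and 2 lower (median 0.36), beside 18.2% and 16.2% of all genes tested. APR1, the adenylylsulfate reductase that commits sulphate to reduction, had 479, 465 and 463 in ld, against 215, 181 and 196 in Col0 (relative log2 change 0.69 ± 0.06, limma, adjusted p = 1.79e-08). SULTR1;2, the main root sulphate importer, had 722, 724 and 613 in ld and 775, 739 and 728 in Col0 (-0.69 ± 0.05, limma, adjusted p = 4.36e-09). APR1 was thus far higher in each ld library, whereas SULTR1;2 was slightly below Col0 on the spike-in scale, where it was not called with all libraries and was called lower without ld library 1 or 2. Of 12 nitrate assimilation genes 5 were called higher and 2 lower, beside the same 18.2% and 16.2%. At equal summed signal these turned to 2 higher and 6 lower, beside 8.80% and 31.1% of all genes tested. NRT2.1, the high-affinity nitrate importer of roots, had 1.46, 8.07 and 13.7 in ld and 27.6, 23.98 and 23.4 in Col0, with the ld libraries spread over a wide range but all below Col0 (-2.45 ± 0.43, limma, adjusted p = 0.000164). HRS1, a nitrate-induced repressor of root growth, was at -0.77 ± 0.08 (limma, adjusted p = 1.21e-07), while NIA1, a nitrate reductase, was at 0.32 ± 0.04 (limma, adjusted p = 8.21e-07).

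Of 24 DNA replication genes 13 were called higher, 0 lower and 11 not called (relative median 0.23), which became 6 higher at equal summed signal. The shares over all genes tested were 18.2% higher and 16.2% lower, or 8.80% and 31.1% at equal summed signal. Of 16 core histone genes 9 were called higher, 0 lower and 7 not called (median 0.17), or 4 higher and 2 lower at equal summed signal. In the mitosis list 1 of 18 genes was called higher and 3 lower (median -0.01), the lower count being near the background. The mitosis counts fell to 0 higher without ld library 1, ld library 3, Col0 library 1 or Col0 library 2, and to 1 lower without Col0 library 1. The histone list gained 1 lower call without ld library 2 or 3. TSO2, a ribonucleotide reductase subunit that supplies DNA precursors, had 876, 866 and 816 in ld, against 415, 413 and 419.6 in Col0. The ld libraries were all about 2-fold higher, a relative log2 change of 0.47 ± 0.04 (limma, adjusted p = 4.01e-09). ICU2, the catalytic subunit of DNA polymerase alpha, had 289, 312 and 295 in ld and 159, 158 and 156 in Col0 (0.36 ± 0.07, limma, adjusted p = 0.000491). HTB2, a histone H2B gene, was at 0.39 ± 0.05 (limma, adjusted p = 2.26e-06). CDC20.1, an activator of the anaphase-promoting complex, was level on the spike-in scale at 169 ± 10.11 in ld and 165 ± 10.06 in Col0 and so fell relative to the shift (-0.52 ± 0.10, limma, adjusted p = 0.000421).

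The E2F site, bound by the E2F factors that drive S-phase genes, was found in 7 of 24 DNA replication promoters (29.2%), against 0.627% of promoters of genes tested. Among genes called higher relative to the shift 0.768% of promoters held it, and among those called lower 0.446%. The letters searched were TTTCCCGC on both strands of the 250 bases before the start. The promoters of MCM6 (chr5:18010668-18010917, minus strand), a subunit of the replicative helicase, and ICU2 (chr5:26776703-26776952, plus strand), from TAIR10.1 in RefSeq, are shown because both genes were called higher and carry the site on opposite strands. MCM6 had a relative log2 change of 0.34 ± 0.10 (limma, adjusted p = 0.0134), which was not called without ld library 2 (0.30; limma, adjusted p = 0.0593) or Col0 library 2 (0.27; limma, adjusted p = 0.0718). Capitals mark the match, 46 bases before the start in MCM6, where it reads as the reverse complement, and 51 in ICU2.
MCM6: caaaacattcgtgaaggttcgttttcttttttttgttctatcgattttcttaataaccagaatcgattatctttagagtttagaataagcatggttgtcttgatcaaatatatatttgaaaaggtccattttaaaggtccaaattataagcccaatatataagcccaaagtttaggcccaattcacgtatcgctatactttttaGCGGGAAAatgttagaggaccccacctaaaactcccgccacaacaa
ICU2: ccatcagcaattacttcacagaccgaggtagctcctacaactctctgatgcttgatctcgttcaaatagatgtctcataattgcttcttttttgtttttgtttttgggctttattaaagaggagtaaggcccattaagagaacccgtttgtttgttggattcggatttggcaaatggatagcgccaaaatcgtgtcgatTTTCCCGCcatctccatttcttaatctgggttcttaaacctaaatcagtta

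Of 10 cytokinin response genes 7 were called lower and 0 higher (median -0.41), beside 16.2% lower and 18.2% higher over all genes tested. ARR5, a type-A response regulator that is induced by cytokinin and damps its signal, had 94.8, 108 and 91.2 in ld, against 97.4, 107 and 103 in Col0. Its groups overlapped on the spike-in scale, so the relative change of -0.62 ± 0.10 (limma, adjusted p = 5.26e-05) marks a gene that did not share the common rise. ARR4 (-0.35 ± 0.05, limma, adjusted p = 3.94e-06) and ARR6 (-0.66 ± 0.11, limma, adjusted p = 8.95e-05; 23.9% of its exon length overlaps another gene), of the same family, were likewise called lower. On the spike-in scale 0 of the 10 were called lower and 3 were called higher, beside 1.71% and 79.8% of all genes tested. Of 15 genes induced rapidly by touch, wounding or cold 9 were called lower and 1 higher (median -0.32), the exception being TCH3, a calmodulin-like protein (0.18 ± 0.04, limma, adjusted p = 0.00119). TCH3 was not called at equal summed signal (0.06; limma, adjusted p = 0.25), and without ld library 1 2 genes of the list were called higher. In the list of abscisic acid, dehydration and cold effectors 5 of 21 were called lower and 1 higher (median -0.02), the lower count being near the background. Of 10 heat shock genes 4 were called higher and 2 lower (median 0.12), and of 13 unfolded protein response genes 5 were called higher and 0 lower (median 0.09), counts that became 4 and 5, and 1 and 1, at equal summed signal. Without ld library 2, ld library 3 or any 1 Col0 library the 5 became 2 or 3. The 2 lower heat shock calls became 1 without ld library 1, ld library 2, Col0 library 2 or Col0 library 3. The cold-regulated COR15B (-1.06 ± 0.05, limma, adjusted p = 5.07e-12; 29.5% of its exon length overlaps another gene) and COR15A (-0.54 ± 0.05, limma, adjusted p = 1.48e-07), both chloroplast proteins of cold protection, were among the effectors called lower, while RD22 was higher (0.50 ± 0.04, limma, adjusted p = 1.06e-09).

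Of 22 glucosinolate genes 11 were called lower, 2 higher and 9 not called relative to the shift (median -0.26). The shares over all genes tested were 16.2% lower and 18.2% higher. On the spike-in scale 17 were called higher and 1 lower, beside 79.8% and 1.71% of all genes tested. BCAT4, the aminotransferase that starts methionine chain elongation, had 1446, 1369.6 and 1402 in ld, against 1642, 1707 and 1689 in Col0, lower in every ld library even on the spike-in scale (relative log2 change -0.82 ± 0.04, limma, adjusted p = 1.52e-12). Of its exon length 21.2% overlaps a gene on the opposite strand. CYP79F1, which opens the aliphatic core pathway, was at -0.55 ± 0.04 (limma, adjusted p = 8.04e-09) and TGG1, the myrosinase that splits glucosinolates, at -0.26 ± 0.04 (limma, adjusted p = 1.64e-05). The members called higher were ESM1 and MYB51, a regulator of indolic glucosinolates (0.20 ± 0.07, limma, adjusted p = 0.0351), whose call was lost without ld library 1 or 2 or Col0 library 1 (0.14 to 0.21; limma, adjusted p = 0.063 to 0.168). Of 17 jasmonate and defensin genes 11 were called lower and 4 higher (median -0.21). They divided within the pathway: ORA59, an ethylene and jasmonate integrator, was higher at 0.61 ± 0.10 (limma, adjusted p = 7.98e-05) while the defensin PDF1.3 was lower at -1.03 ± 0.18 (limma, adjusted p = 0.000128).

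SR34b stood apart in its own family. Of 19 serine/arginine-rich splicing factor genes 9 were called lower and 0 higher relative to the shift (median -0.16). The shares over all genes tested were 16.2% and 18.2%. At equal summed signal 16 were called lower, beside 31.1% of all genes tested. After SR34b the strongest members were RS31 (-0.38 ± 0.05, limma, adjusted p = 4.14e-06) and SR30 (-0.36 ± 0.05, limma, adjusted p = 7.3e-06). On the spike-in scale 17 of the 19 were called higher, beside 79.8% of all genes tested, and SR34b was the member called lower. By contrast 0 of 15 genes of RNA polymerase II and transcript elongation were called in either direction relative to the shift (limma; median within 0.01 of 0; 15 of 15 higher on the spike-in scale), and at equal summed signal 4 were called lower.

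Of 19 cell wall genes 12 were called higher and 3 lower (median 0.14), with 4 higher and 5 lower at equal summed signal. EXPA1, an expansin, had 2468, 2258 and 2402 in ld, against 919.9, 903 and 898 in Col0, more than 2-fold apart in every pairing (relative log2 change 0.82 ± 0.04, limma, adjusted p = 2.52e-12). CESA1, a cellulose synthase of the primary wall, was at 0.22 ± 0.03 (limma, adjusted p = 3.54e-05) and CESA4, a cellulose synthase of the secondary wall of xylem, at -0.56 ± 0.12 (limma, adjusted p = 0.00118). Of 21 auxin genes 5 were called higher and 7 lower (median -0.11), beside 18.2% and 16.2% of all genes tested. The 7 lower calls became 4 without ld library 1 and 2 when only the 6 libraries of ld and Col0 were fitted. PIN7, an auxin efflux carrier, was at 0.55 ± 0.04 (limma, adjusted p = 1.39e-09).

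**Figure D4:**
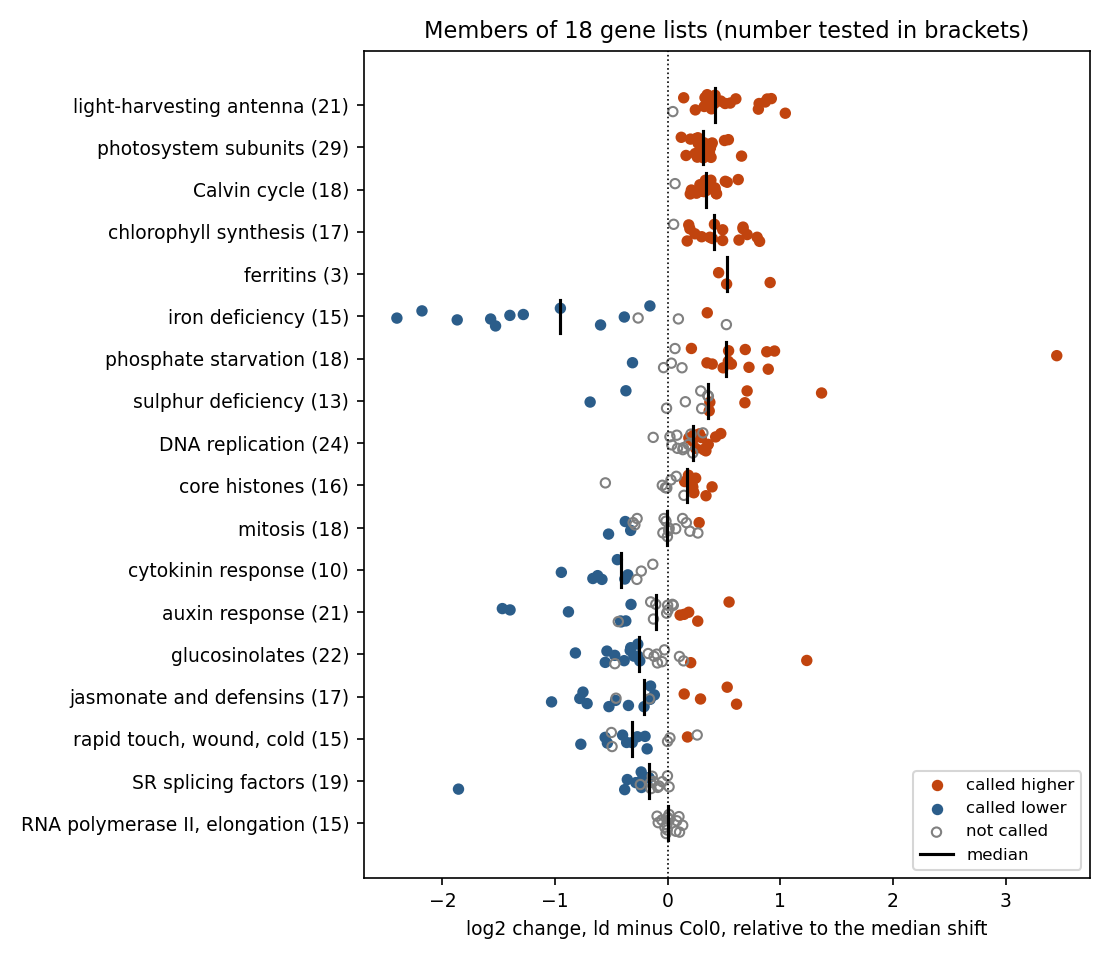
Relative log2 change, ld minus Col0 (horizontal), of each tested member of 18 gene lists, filled orange where called higher, filled blue where called lower, open where not called, with a bar at the list median. The antenna, photosystem, Calvin cycle and chlorophyll rows lie to the right of 0, iron deficiency lies to the left with a median of -0.95, and RNA polymerase II genes gather at 0.

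The same genes were then set beside other comparisons that test ld. These were ld against Col0 in set 1 and in set 3, 2 other seedling sets with 3 libraries per group, each fitted and scaled on its own, so that no test was made between sets. The other was ld pol2a against pol2a in set 2, which shares no library with ld against Col0, and for which the difference between the effects of ld was tested as an interaction (51.5% of all genes called). In set 1 25.4% of genes tested were called higher and 27.6% lower relative to that set's own shift, in set 3 19.2% and 19.3%, and in ld pol2a against pol2a 27.0% and 27.3%. Of the 15 largest rises of set 2, 11 were called higher and 2 lower in set 1, and 14 were called higher and 0 lower in set 3. Of the 15 largest falls, 5 were called lower and 9 higher in set 1, and 11 were called lower and 2 higher in set 3. In ld pol2a against pol2a 8 of the rises were called higher and 4 lower, and of the falls 2 were called lower and 10 higher.

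FLC and SOC1 kept their directions throughout. The relative log2 change of FLC was 3.41 in set 2, 3.14 in set 1, 3.14 in set 3 and 6.70 in ld pol2a against pol2a. For SOC1 the values were -2.08, -2.31, -2.73 and -2.12, and its interaction with pol2a was not called (-0.04, limma, adjusted p = 0.881). HOL2 was higher in each comparison as well, at 1.73, 1.19, 1.02 and 2.54. IPS1 behaved otherwise, at 3.45 in set 2, -1.07 in set 1, 3.08 in set 3 and -1.60 in ld pol2a against pol2a. In set 1 its signal was very low, at 4.07 ± 2.61 in ld and 3.82 ± 1.27 in Col0 (SD, n = 3 each). There its groups overlapped, and it was not called on the spike-in scale (log2 change -0.07, limma, adjusted p = 0.873). MRD1 was at 7.53, 7.29 and 7.16 in sets 2, 1 and 3, but at -0.06 in ld pol2a against pol2a. Its signal was already 429 ± 22.0 in pol2a, against 2.06 ± 1.64 in Col0, and was 1114 ± 127 in ld pol2a (SD, n = 3 each). The -0.06 is thus a change from a raised level and not a lack of MRD1 signal with pol2a. LD itself was at 0.23 in set 2, 1.26 in set 1, -0.26 in set 3 and 0.21 in ld pol2a against pol2a. It was called higher in set 1 (limma, adjusted p = 3.1e-12) and lower in set 3 (limma, adjusted p = 0.00256).

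The iron list had the opposite sign in the other comparisons. The iron deficiency list had a relative median of -0.95 in set 2, 0.20 in set 1, 0.41 in set 3 and 1.31 in ld pol2a against pol2a, where 12 of 15 genes were called higher and 2 lower. For IRT1 the relative log2 changes were -1.87, 0.14, 0.38 and 3.66, and the interaction with pol2a was 5.53 (limma, adjusted p = 7.93e-18). FER1 was at 0.91, -0.14, 0.31 and -1.27, opposite in sign to IRT1 except in set 3, where both were called higher, with an interaction of -2.18 (limma, adjusted p = 7.61e-17). The phosphate list was at 0.52 in set 2, -0.63 in set 1, 0.13 in set 3 and -0.63 in ld pol2a against pol2a. The antenna list was at 0.42, -0.12, 0.05 and 0.50, and the Calvin cycle list at 0.34, -0.28, 0.10 and -0.33, with 17 of 18 Calvin cycle genes called lower by the interaction (beside 25.9% of all genes). The DNA replication list had a median above 0 in each, at 0.23, 0.04, 0.16 and 0.08. However, 3 of its 23 genes tested in set 1 were called higher and 4 lower, beside 25.4% and 27.6% of all genes. Set 3 had 11 of 24 higher and 0 lower (beside 19.2% and 19.3%), and ld pol2a against pol2a 8 of 24 higher and 3 lower (beside 27.0% and 27.3%). SR splicing factors were at -0.16 and -0.09 in sets 2 and 3 but at 0.12 in set 1 and 0.42 in ld pol2a against pol2a, where 15 of 19 were called higher by the interaction (beside 25.5% of all genes). SR34b alone was at -1.86 in set 2, 1.05 in set 1, -0.48 in set 3 and 1.76 in ld pol2a against pol2a. The cytokinin response list was low in set 2 alone, at -0.41, against 0.20 in set 1, -0.03 in set 3 and 0.13 in ld pol2a against pol2a. By the interaction 5 of its 10 genes were called higher and 0 lower (beside 25.5% and 25.9% of all genes).

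**Figure D5:**
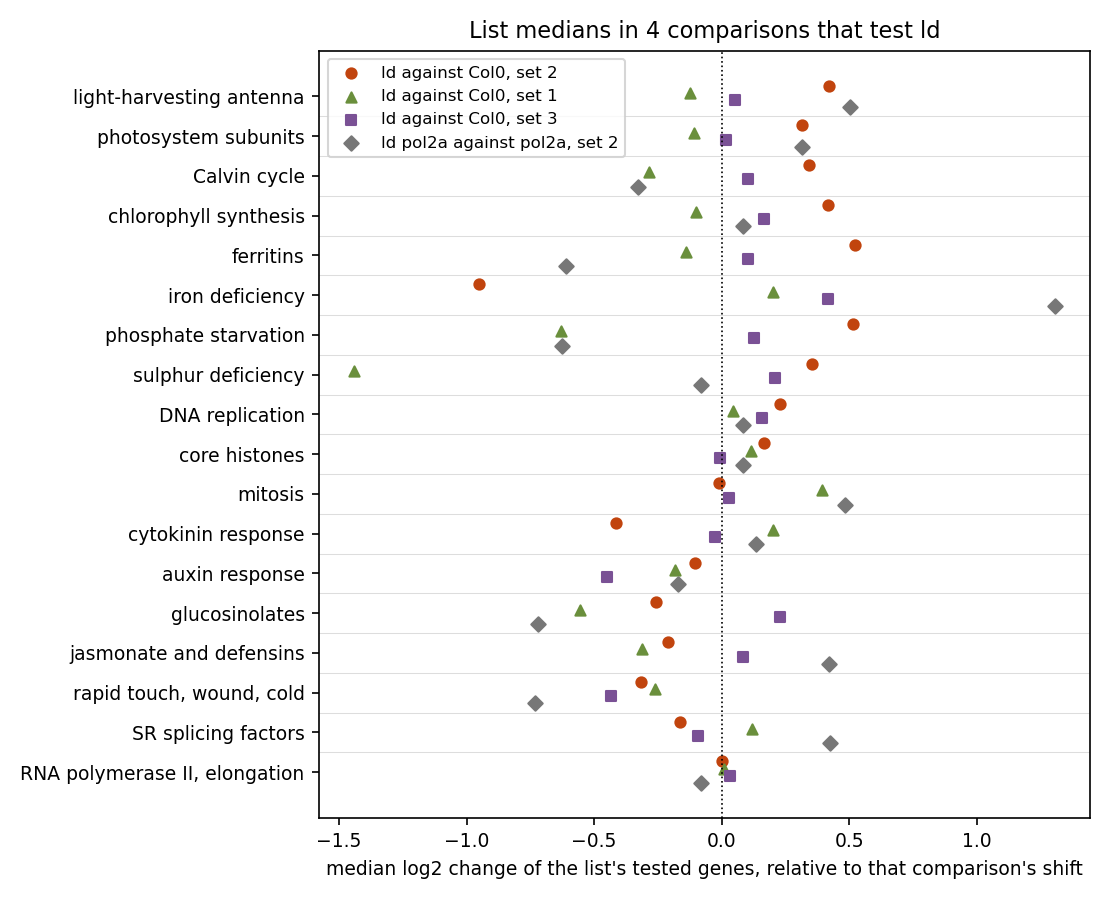
Median relative log2 change of the tested genes of 18 lists (horizontal) in 4 comparisons: ld against Col0 in set 2 (circles), set 1 (triangles) and set 3 (squares), and ld pol2a against pol2a (diamonds). The set 2 point lies apart from the others for iron deficiency, at -0.95, and for cytokinin response, at -0.41. All 4 points lie near 0 for RNA polymerase II genes.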

How the data were processed

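Whole-seedling RNA was sequenced from 3 ld and 3 Col0 libraries of set 2. Signal was deposited by the authors as gene counts divided by 1 factor per library, and the labels name a spike-in. Per the submitters' processing notes the tools included Trimmomatic 0.38, HISAT2, SAMtools 1.9, featureCounts, deepTools and DESeq2 with TAIR10, without their roles or order. No source used here gives the strand used in counting. All values of the set were whole multiples of what 1 read is worth, within 0.1 read. The 12 libraries lack 1 direction of within-group variation, spread over all 4 groups (eigenvalue 2.6e-06, against 0.00484 for the next), so the recovered whole numbers may not be raw counts and the spread may be understated.

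Genes whose mean over the 12 libraries reached 10 were tested with limma 3.58.1 (R 4.3.3) on log2 of signal plus 1, with a mean-variance trend and Benjamini-Hochberg adjustment over all genes tested. A gene was called at an adjusted p under 0.05. Fold changes on this scale understate the change of low genes. The relative scale divided each library by its median-of-ratios factor. Interactions came from the same fit. Single values such as a share of the signal were compared by exact two-sided permutation. Scripts were tested on simulated data. Alternatives were the pseudocount, the filter, the libraries fitted, the replicate block, the trend, edgeR 4.0.16 (quasi-likelihood) on the recovered reads, the scaling and each library left out.

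The genes named by rule were LD, FLC, SOC1 and FT, the 15 largest relative rises and 15 largest falls described in the text, the 10 genes with the highest mean signal, and up to 4 members of each list with the smallest p relative to the shift. Other members were named after their values were seen. The members and lists were chosen with earlier results of these data known. Of 672 genes listed by locus, 16 were dropped because the reference gave the locus no such symbol. Names, coordinates and promoters are from RefSeq (TAIR10.1), which had an entry for 28009 of 28775 genes. The separate table of all counts was not used.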

Additional observations from a re-analysis of the deposited data

Results flagged for a closer look

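By limma's interaction term relative to the shift, the effect of ld differed with pol2a for 27 of the 30 largest rises and falls. The term is ld pol2a against pol2a, minus ld against Col0, with an adjusted p under 0.05 for each gene. Of all genes tested 51.5% passed the same threshold. The 30 genes were chosen by ld against Col0, which the term subtracts. That choice alone favours negative differences for rises and positive ones for falls, so the count and the signs support no conclusion. Among the rises the difference was positive for FLC (3.29), LHCB2.3 (1.54), HOL2 (0.82) and EMB975 (0.50). It was negative for MRD1 (-7.59), IPS1 (-5.05), MES18 (-2.79), EXPA8 (-2.30), AATP1 (-1.58), MES8 (-1.43), LTP3 (-1.28), ESM1 (-0.87) and CWLP (-0.52). The signal of MRD1 was already 429 in pol2a alone, against 2.06 in Col0.

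Among the falls each difference past the threshold was positive, the sign that the choice of these genes favours. The iron importer IRT1 had 5.53, the splicing factor gene SR34b 3.62, UGT74E2 3.26, SCAMP4 3.24, OASA2 2.84 and NF-YC12 2.71. AIR1 had 2.50, MTPA2 2.32, EXLB1 2.05, CYP87A2 1.56, RABA6b 1.52, RLP19 1.104, GLP9 1.09 and COR413IM1 0.26.

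In set 1 the libraries of ld and Col0 separated in the direction opposite to set 2 for 10 of these genes, a difference between sets that was not tested. The relative log2 change in set 1 was -1.89 for EXPA8, a rise in set 2. It was positive for genes that fell in set 2, namely SR34b (1.05), CYP87A2 (1.03), SCAMP4 (0.99), OASA2 (0.75), NF-YC12 (0.71), RABA6b (0.46), RLP19 (0.40), MTPA2 (0.21) and IRT1 (0.14). In set 3 the same held for IRT1 (0.38) and CYP87A2 (0.34), again untested.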

How the results depend on the processing

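Relative to the shift, 3537 genes were called higher and 3143 lower, and the counts stayed within 1.5 times of these under all alternatives but equal summed signal, where 1711 were higher and 6048 lower. With a minimum mean of 50, 220 genes were called lower on the spike-in scale, and with no filter the median change was 0.51. Leaving out each library in turn gave 2988 to 3204 higher and 2616 to 2831 lower relative to the shift, and, on the spike-in scale, 15103 to 15383 higher and 282 to 323 lower. The median was 0.55 to 0.57. The log2 difference of summed signal was then 0.670 to 0.687. In percentage points of the signal, the antenna difference was 1.24 to 1.37, the photosystem one 0.565 to 0.615, the Calvin cycle one 0.659 to 0.711, the ribosomal one -0.166 to -0.0660, the chloroplast-encoded one -0.475 to 0.0980 and the mitochondrion-encoded one -0.275 to 0.0158. The interaction with pol2a called 4708 to 4831 genes higher and 4746 to 4904 lower relative to the shift, and, on the spike-in scale, 16623 to 16785 and 286 to 313.

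With the replicate block 3176 genes were higher and 2806 lower relative to the shift, and on the spike-in scale 15322 were higher and 293 lower, at a median of 0.56. Same-numbered ld and Col0 libraries had deviations correlated at 0.173, 0.017 and 0.187 for replicates 1, 2 and 3. Between different numbers the largest correlation was 0.04. Replicates 1 and 3 thus shared a small part of their deviations, which the main fit did not model. The labels pair the libraries by number alone. edgeR on the recovered reads called 3252 higher and 3085 lower, and 1 residual degree of freedom fewer, an alternative chosen after seeing the data, 3149 and 2783.

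Of 11067 alternative values 10555 kept their direction and side of the threshold or stayed close, 254 moved, 225 lost a call, 32 gained one and 1 turned round. That one was PDIL1-1, a protein disulfide isomerase, at -0.0149 with equal summed signal (limma, adjusted p = 0.781). Among the unfolded protein response genes 5 of 13 were called higher, and 2 or 3 without ld library 2, ld library 3 or any 1 Col0 library. Depth limits BHLH100, CYP82C4, NRT2.1 and FT, which rest on few reads, and the cause of the changes above was not tested.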

Other observations

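Of 15 light signalling genes 8 were called higher and 0 lower (relative median 0.17), beside 18.2% higher and 16.2% lower over all genes tested, and 5 were higher and 1 lower at equal summed signal. PHYB, the red light photoreceptor, had a signal of 836, 867 and 922 in ld, against 447, 456 and 465 in Col0 (relative log2 change 0.38 ± 0.05, SE; limma, adjusted p = 7.45e-06). Of 18 clock genes 8 were called higher and 0 lower (median 0.15), with 5 higher without ld library 2, ld library 3, Col0 library 2 or Col0 library 3, and 1 higher at equal summed signal. CDF1, a repressor of daytime flowering genes, had 74.4, 74.8 and 87.8 in ld and 34.9, 37.7 and 32.95 in Col0, with no overlap (0.59 ± 0.13, limma, adjusted p = 0.00109). Of 17 carbon starvation genes 7 were called higher and 1 lower, or 1 higher and 4 lower at equal summed signal.

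GA20OX2, a gibberellin 20-oxidase, had 16.1, 16.1 and 18.2 in ld, against 30.9, 31.8 and 31.5 in Col0, every ld library below every Col0 library (-1.41 ± 0.21, limma, adjusted p = 2.18e-05). Its list of 10 genes had 2 called higher and 3 lower, beside 18.2% and 16.2% of all genes tested. The lower calls became 1 without ld library 2 or Col0 library 2. The higher calls became 1 without ld library 2 or Col0 library 1. ICS1, which makes the precursor of salicylic acid, had 156, 152 and 115 in ld and 74.7, 62.6 and 52.7 in Col0 (0.59 ± 0.13, limma, adjusted p = 0.00148), in a list of 16 with 5 called higher and 1 lower, the lower call being lost without ld library 2. SARD1, a regulator of ICS1, was at 1.11, with 18.4% of its exon length overlapping another gene. DFR, a reductase of anthocyanin synthesis, had 97.8, 98.3 and 103 in ld and 46.3, 33.8 and 30.8 in Col0 (0.88 ± 0.12, limma, adjusted p = 8.15e-06).

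By their median, cytosolic ribosomal protein genes stayed near the shift, but their calls leaned towards higher. Of 267 tested 75 were called higher and 19 lower (median 0.04), beside 18.2% and 16.2% of all genes tested, with 12 lower without ld library 1. At equal summed signal 21 were called higher and 88 lower, beside 8.80% and 31.1% of all genes tested. The share of the signal in ribosomal protein genes was 3.90% ± 0.0833 in ld and 4.01% ± 0.0948 in Col0 (SD, n = 3 each; two-sided exact permutation test, p = 0.3). Of 11 housekeeping genes 3 were called higher, 2 lower and 6 not called (median 0.04), beside 18.2% higher and 16.2% lower over all genes tested. The 2 lower calls became 1 without ld library 2, ld library 3, Col0 library 1 or Col0 library 2. UBQ10, a polyubiquitin gene, was at 0.34 ± 0.03 (limma, adjusted p = 1.71e-07) and ROC1, a cyclophilin gene, at -0.34 ± 0.05 (limma, adjusted p = 3.57e-05) relative to the shift, and both were above Col0 in every ld library on the spike-in scale.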
